A study of Mus musculus with 12 samples.

Results

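Markers of the hepatic stellate cell were followed in liver RNA of mice that lack Foxo3 in hepatocytes and of their floxed controls. The set holds 10 genes, chosen by name from the 55487 genes of the deposited tables: Lrat, Reln, Ecm1, Hgf, Dcn and Des, which mark the quiescent, vitamin A-storing cell; Pdgfrb and Rgs5, shared with pericytes; and Acta2 and Tagln, the contractile genes of the activated cell. All 10 were found once each, all 10 passed the filter on low counts, and each had counts in every library.

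The 12 livers came from males of 16 to 18 months kept on diet ad libitum, in 4 groups of 3 biological replicates. Controls had the floxed Foxo3 gene without Cre, and were sampled fed or after an overnight fast. Knockouts were Foxo3 flox/flox with Alb-cre, sampled in the same 2 states, so the floxed gene is common to all 4 groups. The Cre is driven by the albumin promoter, which is active in hepatocytes, so stellate cells are not the cells it targets. A library is named below by its group and replicate number, for example fed control 3.

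Stellate cells lie between the hepatocytes and the sinusoidal endothelium, where they store retinol as retinyl esters in lipid droplets and act as the pericytes of the sinusoid. When the liver is injured they lose the droplets, take on contractile genes such as Acta2, divide in response to platelet-derived growth factor and lay down collagen. In healthy liver, transcripts of Acta2 and Tagln also come from the smooth muscle of portal and hepatic vessels. A bulk level is the sum over all cells, so fewer stellate cells and less RNA per stellate cell cannot be told apart here.

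Libraries held 17520058 to 22414976 counts, and the 10 markers together took 0.022% to 0.0684% of them. Levels in CPM are counts scaled to library size with the TMM factors of edgeR. Foxo3 itself stood at 44.5 to 50.4 CPM in fed controls and at 58.8 to 62.2 CPM in fed knockouts. In the fasted state it stood at 38.1 to 44.3 CPM in controls and at 46.6 to 53.6 CPM in knockouts. The knockouts were thus higher without overlap in each feeding state, and the cause was not tested. Reads from exons outside a floxed segment are part of this gene-level count, so it is no check of the genotype labels. 2 libraries stood apart for the markers and are kept in view throughout: fed control 3 had the highest CPM of 6 of the 10 markers, and fed knockout 1 had the lowest of 4 and the highest Acta2. Fasted knockout 3 also had the lowest CPM of 4 markers but was not left out with them. The differences described most closely are also given without fed control 3, fed knockout 1 or both. Leaving out both brings the fed groups closer by construction for most markers.

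The start of 4 of these genes is shown because they stand for the patterns described below: Lrat and Hgf for the quiescent markers that vary together, Ecm1 for the marker with the steadiest level in fed controls, and Acta2 for the contractile marker that does not follow them. The sequences are the 250 bases upstream of the transcription start in RefSeq, build GRCm38.p6, read 5′ to 3′ on the strand of the gene. They lie at chr3:82903975-82904224 for Lrat (minus strand), chr5:16553245-16553494 for Hgf (plus), chr3:95739570-95739819 for Ecm1 (minus) and chr19:34255374-34255623 for Acta2 (minus). In the deposited tables Acta2 extends to 34255590, so most of its window lies inside the gene as annotated there. Positions below are counted from the RefSeq start. Capitals mark matches on either strand. The GC box, an element bound by Sp1, was searched as GGGCGG in these windows. The TATA box was searched as TATAAA, just upstream of many transcription starts. The motif of FoxO factors was GTAAACA, named for the family that Foxo3 belongs to. The E-box was CAGCTG, and the CArG box, the element read by serum response factor, was searched with 1 other letter allowed in its central run (here the relaxed match) and without (the strict match).
Lrat: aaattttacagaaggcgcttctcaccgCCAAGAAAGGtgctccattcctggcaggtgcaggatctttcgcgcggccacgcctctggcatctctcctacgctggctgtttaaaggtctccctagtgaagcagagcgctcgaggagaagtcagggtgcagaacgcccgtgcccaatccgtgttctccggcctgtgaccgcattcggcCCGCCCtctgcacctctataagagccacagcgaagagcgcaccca
Hgf: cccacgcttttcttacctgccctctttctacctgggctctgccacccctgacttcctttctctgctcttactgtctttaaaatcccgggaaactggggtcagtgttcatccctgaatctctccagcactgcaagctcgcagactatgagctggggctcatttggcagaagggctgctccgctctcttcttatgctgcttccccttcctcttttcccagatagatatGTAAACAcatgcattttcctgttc
Ecm1: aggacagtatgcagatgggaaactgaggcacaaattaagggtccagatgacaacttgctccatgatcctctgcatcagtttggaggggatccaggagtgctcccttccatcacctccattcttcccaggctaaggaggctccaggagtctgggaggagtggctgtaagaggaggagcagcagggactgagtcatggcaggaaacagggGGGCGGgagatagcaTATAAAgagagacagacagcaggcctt
Acta2: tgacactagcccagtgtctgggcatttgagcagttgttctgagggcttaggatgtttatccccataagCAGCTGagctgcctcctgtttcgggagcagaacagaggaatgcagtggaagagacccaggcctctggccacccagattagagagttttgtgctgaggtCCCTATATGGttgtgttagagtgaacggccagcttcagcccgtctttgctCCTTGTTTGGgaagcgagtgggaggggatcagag

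Acta2 held 2 of the relaxed CArG matches, with first bases at -84 and -34 from the start, and an E-box at -182. Lrat held 1 relaxed CArG match at -223 and a GC box at -45. Hgf held the FoxO motif at -24, and Ecm1 held a TATA box at -27 and a GC box at -42. Another Hgf promoter, at chr5:16553651-16553900 and not shown, held none of the searched motifs. Of 32851 promoters of the same length, 8.59% held a relaxed CArG match, 1.47% a strict one, 3.17% the FoxO motif, 12.4% the TATA box, 32.7% the GC box and 13% the E-box. The search covered 8 such promoters for 7 of the markers, with Pdgfrb, Dcn and Tagln not among them. Of the 8, 2 had a relaxed CArG match, none a strict one, 1 the FoxO motif and 4 a GC box. A nuclear receptor half-site (AGGTCA), present in 14% of all promoters, was in 0 of the 8. These are matches of letters in short windows and were not tested for binding.

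On the length-scaled TPM of the authors, the markers spanned a wide range of levels. Ecm1, a secreted matrix glycoprotein, was the highest at a mean of 93.1 TPM over 12 libraries, followed by decorin (Dcn), a small leucine-rich proteoglycan, at 61.7 TPM. Rgs5, a regulator of G-protein signalling in mural cells, followed at 16.3 TPM. That order of Ecm1, Dcn, Rgs5 and then Lrat held in each of the 12 libraries, although the ranges of neighbours overlapped between libraries.
Below them the order was close. Lrat, which esterifies retinol for storage, averaged 9.75 TPM, Tagln 8.25 TPM and Reln, a secreted glycoprotein, 6.34 TPM. Lrat was above Tagln in 8 libraries and Tagln above Reln in 8, so these neighbours were not separated. Pdgfrb, the receptor for platelet-derived growth factor B, averaged 4.37 TPM, Hgf 3.26 TPM, desmin (Des) 2.85 TPM and Acta2 2.30 TPM. Hgf was above Des in 6 of 12 libraries. Acta2, the gene most used to mark activated stellate cells, was thus the lowest of the 10 on this scale, with 7 to 148 raw counts per library.

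**Figure D1:**
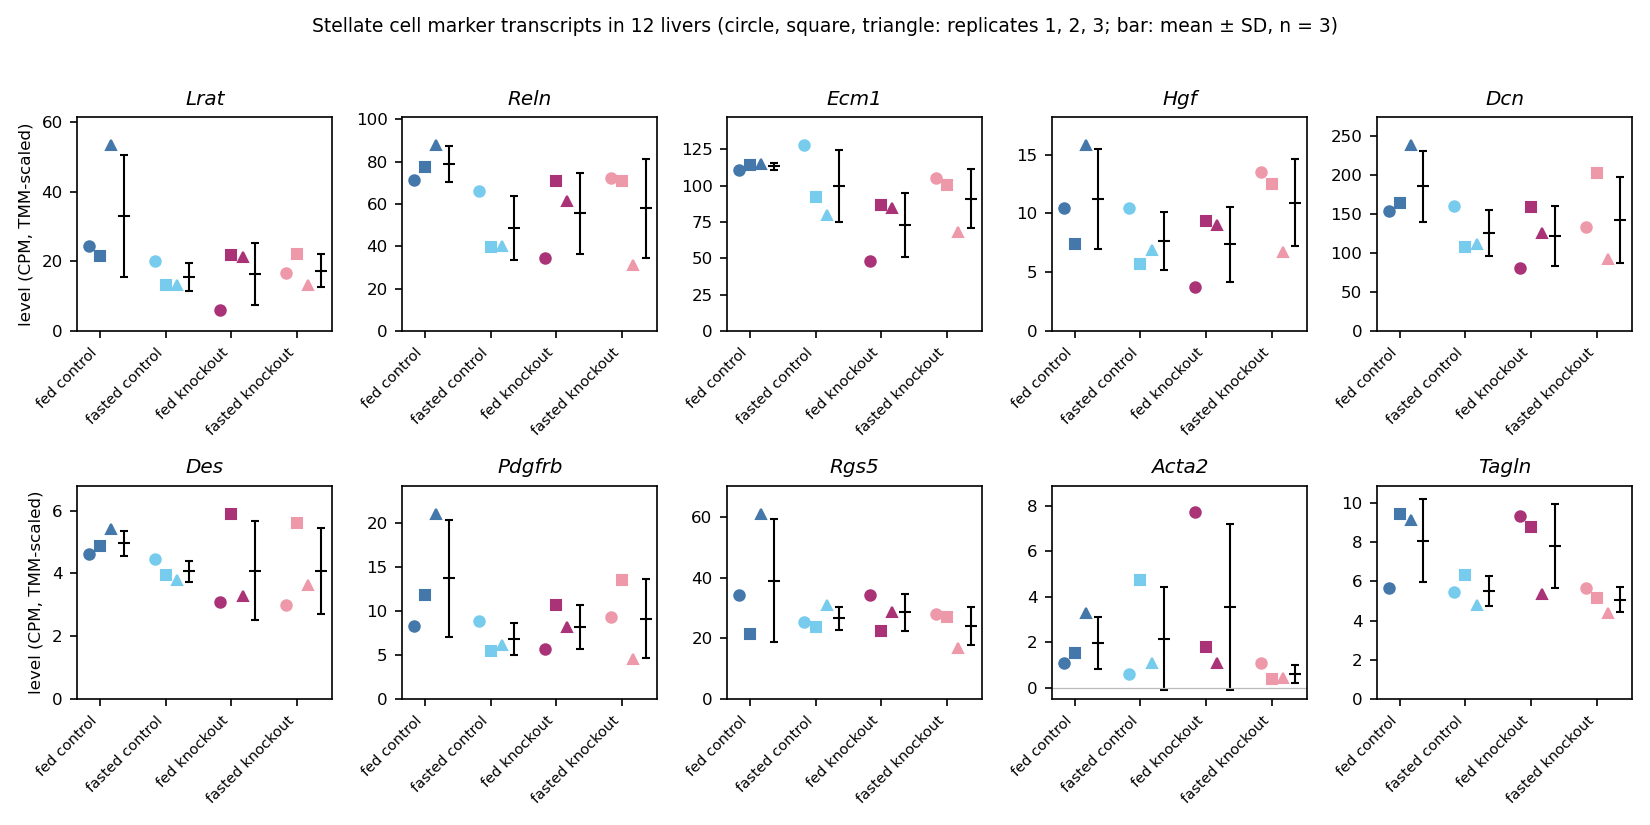
Level of each of the 10 markers in CPM (vertical axes, each from about 0) in every library of the 4 groups, with the group mean and SD (n = 3) beside the points. Fed control 3 is the highest point for Lrat at 53.3 CPM, and fed knockout 1 is the lowest at 6.06 CPM; in the Acta2 panel fed knockout 1 is the highest at 7.74 CPM.

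Lrat lies at chr3:82892579-82903973 on the minus strand (mm10, coordinates of the whole gene, as for each marker below). It stood at 24.3, 21.7 and 53.3 CPM in fed control 1 to 3, 20.1, 13.1 and 13.1 in the fasted controls, 6.06, 21.8 and 21.2 in the fed knockouts and 16.7, 22.2 and 13.1 in the fasted knockouts. Fed control 3 was far above and fed knockout 1 far below the other 10 libraries, which lay between 13.1 and 24.3 CPM. On this scale the 3 fed controls did not overlap the 3 fasted controls. In TPM they did, with fed control 2 at 9.38 and fasted control 1 at 9.71. The edgeR difference of fasted from fed controls was -1.10 on the log2 scale (SE 0.49, 95% confidence interval -2.21 to 0.0044, adjusted p = 0.26). Without fed control 3 it was -0.58. The fed knockouts differed from the fed controls by -1.02 (SE 0.49, adjusted p = 0.81), a value that shrank to -0.10 without fed control 3 and fed knockout 1. In the fasted state the genotypes differed by 0.17 (95% interval -0.94 to 1.28).

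Reln (chr5:21884454-22344702, minus) encodes reelin, better known from the developing brain and made in liver by stellate cells. It stood at 71.1, 77.6 and 87.7 CPM in the fed controls, 66.0, 39.5 and 40.04 in the fasted controls, 34.3, 70.9 and 61.3 in the fed knockouts and 72.2, 70.9 and 31.0 in the fasted knockouts. The libraries fell into a higher set of 8 and a lower set of 4 that came from 3 of the groups: fasted control 2 and 3, fed knockout 1 and fasted knockout 3. On this scale all 3 fed controls were above all fasted controls and, by a narrow margin, above all fed knockouts. In TPM fed control 1 (7.16) was below fasted control 1 (7.20) and fed knockout 2 (7.48). The difference of fasted from fed controls was -0.70 (SE 0.35, adjusted p = 0.31), and that of fed knockouts from fed controls was -0.51 (SE 0.35, adjusted p = 0.89). Without fed knockout 1 the latter was -0.25.

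Ecm1 (chr3:95734147-95739569, minus) stood at 111, 114 and 115 CPM in the fed controls, 128, 92.4 and 79.7 in the fasted controls, 47.8, 87.0 and 84.5 in the fed knockouts and 105, 100.4 and 68.0 in the fasted knockouts. The fed controls lay within a few CPM of each other, and all 3 fed knockouts were below them, with fed knockout 1 far lower than its 2 group mates. Fed knockouts averaged 73.1 ± 21.9 CPM against 113 ± 2.23 CPM in fed controls (SD, n = 3 each). The edgeR difference was -0.63 (SE 0.24, 95% interval -1.16 to -0.10), which missed the threshold at an adjusted p of 0.81. Without fed knockout 1 it was -0.40. In the fasted state the genotypes overlapped and differed by -0.13 (95% interval -0.66 to 0.39). The mean over both feeding states was -0.38 (SE 0.17, adjusted p = 0.63).

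Hgf (chr5:16553495-16620152, plus) encodes hepatocyte growth factor, a mitogen that stellate cells supply to hepatocytes through the receptor Met. It stood at 10.4, 7.44 and 15.8 CPM in the fed controls, 10.4, 5.71 and 6.88 in the fasted controls, 3.71, 9.39 and 8.99 in the fed knockouts and 13.5, 12.5 and 6.68 in the fasted knockouts. Fed control 3 was again the highest library and fed knockout 1 the lowest, and all groups overlapped. Its difference with fasting was -0.55 in controls (SE 0.40, adjusted p = 0.50) and 0.57 in knockouts (SE 0.41, adjusted p = 0.58). These were -0.22 without fed control 3 and 0.25 without fed knockout 1. The difference between the 2 values, the interaction, was 1.12 (SE 0.57, adjusted p = 0.73), and 0.48 without both libraries.

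Dcn (chr10:97479609-97518143, plus) encodes decorin, which binds collagen fibrils. It stood at 154, 164 and 238 CPM in the fed controls, 159.6, 107 and 111 in the fasted controls, 81.2, 159 and 126 in the fed knockouts and 133, 202 and 91.7 in the fasted knockouts. Fed control 3 was highest and fed knockout 1 lowest, with fasted knockout 3 next to it. The differences were -0.56 with fasting in controls (SE 0.32, adjusted p = 0.38) and -0.61 in fed knockouts against fed controls (SE 0.32, adjusted p = 0.82). The former was -0.34 without fed control 3, and the latter -0.17 without fed control 3 and fed knockout 1.

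Des (chr1:75360329-75368579, plus), the intermediate filament long used to stain stellate cells in rodents, had the smallest ratio of highest to lowest library, at 1.96. It stood at 4.61, 4.86 and 5.40 CPM in the fed controls, 4.45, 3.96 and 3.80 in the fasted controls, 3.08, 5.90 and 3.28 in the fed knockouts and 3.01, 5.62 and 3.63 in the fasted knockouts. In CPM the fed controls were above the fasted controls without overlap, but by less than the spread among the knockouts. In TPM they overlapped, with fed control 1 at 2.93 and fasted control 1 at 3.07. The difference with fasting was -0.29 in controls (SE 0.27, adjusted p = 0.62) and 0.0020 in knockouts (95% interval -0.60 to 0.60). The latter was -0.165 without fed knockout 1. Fed knockouts differed from fed controls by -0.28 (SE 0.27), and by -0.11 without fed knockout 1.

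Pdgfrb (chr18:61045150-61085061, plus) stood at 8.26, 11.8 and 21.1 CPM in the fed controls, 8.85, 5.43 and 6.20 in the fasted controls, 5.75, 10.7 and 8.24 in the fed knockouts and 9.33, 13.6 and 4.55 in the fasted knockouts. Fed control 3 was the highest library by far and fasted knockout 3 the lowest. The difference with fasting in controls was -1.004 (SE 0.43, adjusted p = 0.23), and -0.56 without fed control 3. In knockouts it was 0.16 (95% interval -0.79 to 1.11), and -0.04 without fed knockout 1. The interaction was 1.16 (SE 0.61, adjusted p = 0.74), 0.72 without fed control 3 and 0.52 without both.

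Rgs5 (chr1:169655501-169695813, plus) stood at 34.2, 21.4 and 61.0 CPM in the fed controls, 25.4, 23.6 and 30.9 in the fasted controls, 34.4, 22.4 and 28.7 in the fed knockouts and 28.1, 27.1 and 16.7 in the fasted knockouts. Outside fed control 3 it lay between 16.7 and 34.4 CPM, and fed knockout 1, the lowest library for 4 quiescent markers, was above the median of Rgs5. The difference with fasting in controls was -0.54 (SE 0.34, adjusted p = 0.43) and -0.06 without fed control 3. The difference of fed knockouts from fed controls was -0.45, and 0.03 without fed control 3.

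Acta2 (chr19:34241090-34255590, minus) encodes smooth muscle alpha-actin. It stood at 1.09, 1.54 and 3.27 CPM in the fed controls, 0.593, 4.75 and 1.10 in the fasted controls, 7.74, 1.80 and 1.08 in the fed knockouts and 1.06, 0.359 and 0.403 in the fasted knockouts. These are few reads: 23, 33 and 72 counts in the fed controls, 12, 84 and 26 in the fasted controls, 148, 32 and 20 in the fed knockouts and 24, 8 and 7 in the fasted knockouts. The 3 high libraries, fed knockout 1, fasted control 2 and fed control 3, came from 3 different groups. In CPM the 3 fasted knockouts lay below the 3 fed knockouts by a narrow margin, with fed knockout 3 at 1.08 and fasted knockout 1 at 1.06. In TPM these libraries were in the other order, at 1.21 and 1.23, as they were in raw counts.
The difference of fasted from fed knockouts was -2.51 (SE 0.97, 95% interval -4.66 to -0.36, adjusted p = 0.26 with edgeR). DESeq2 gave -2.53 with an adjusted p of 0.037, past the threshold, while edgeR without fed knockout 1 gave -1.21. In controls the difference with fasting was 0.10 (95% interval -1.87 to 2.06), and -1.20 without fasted control 2. Fed knockouts differed from fed controls by 0.85 (SE 0.87), a sign that turned to -0.45 without fed knockout 1. Fasted knockouts differed from fasted controls by -1.76 (SE 0.98, adjusted p = 0.62), and by -0.46 without fasted control 2.

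Tagln (chr9:45929619-45936058, minus) encodes transgelin, an actin-binding protein of smooth muscle. It stood at 5.65, 9.45 and 9.13 CPM in the fed controls, 5.44, 6.34 and 4.81 in the fasted controls, 9.30, 8.77 and 5.33 in the fed knockouts and 5.66, 5.17 and 4.38 in the fasted knockouts. In each genotype 2 of the 3 fed livers lay near 9 CPM, and the other 8 livers, 1 fed liver of each genotype among them, lay between 4.38 and 6.34 CPM. Of the 10 markers it had the most even difference with fasting: -0.55 in controls (SE 0.24, adjusted p = 0.23) and -0.62 in knockouts (SE 0.24, adjusted p = 0.25).
The mean of both was -0.58 (SE 0.17, 95% interval -0.95 to -0.21), just outside the threshold at an adjusted p of 0.051. DESeq2 placed it inside at 0.019 and limma-voom outside at 0.079, and over all alternatives the adjusted p ran from 0.0188 to 0.185. Leaving out fed control 1 or fed knockout 3, the low fed liver of each genotype, gave 0.021 and 0.023. Each of these widens the difference by construction, so neither is further support for a fall. The genotypes differed by -0.05 in the fed state (95% interval -0.57 to 0.47) and by -0.12 in the fasted state (95% interval -0.65 to 0.41).

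Tagln also shares its locus with annotated genes of the opposite strand, which were singled out after their values were seen. Gm48529, an antisense gene, covers 1241 of the 1988 exonic bases of Tagln, and its counts followed those of Tagln in each library at a ratio of 0.949 to 1.08, with 1624 counts against 1610 over all 12. Whether the authors counted by strand is not given in the sources used here, so reads of the 2 genes cannot be told apart. Gm48529 differed with fasting by -0.54 (adjusted p = 0.061), which may not be an observation separate from that of Tagln. With its counts added to those of Tagln, the mean difference with fasting was -0.56, and the adjusted p was 0.044. This sum may hold the same reads more than once, so its adjusted p is no further support for a fall. Pcsk7, which shares 108 exonic bases with Tagln, had 549 to 830 counts. Reln shares 246 exonic bases with the antisense gene Gm10475, which had 24 to 121 counts against 538 to 1931 for Reln.

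**Figure D2:**
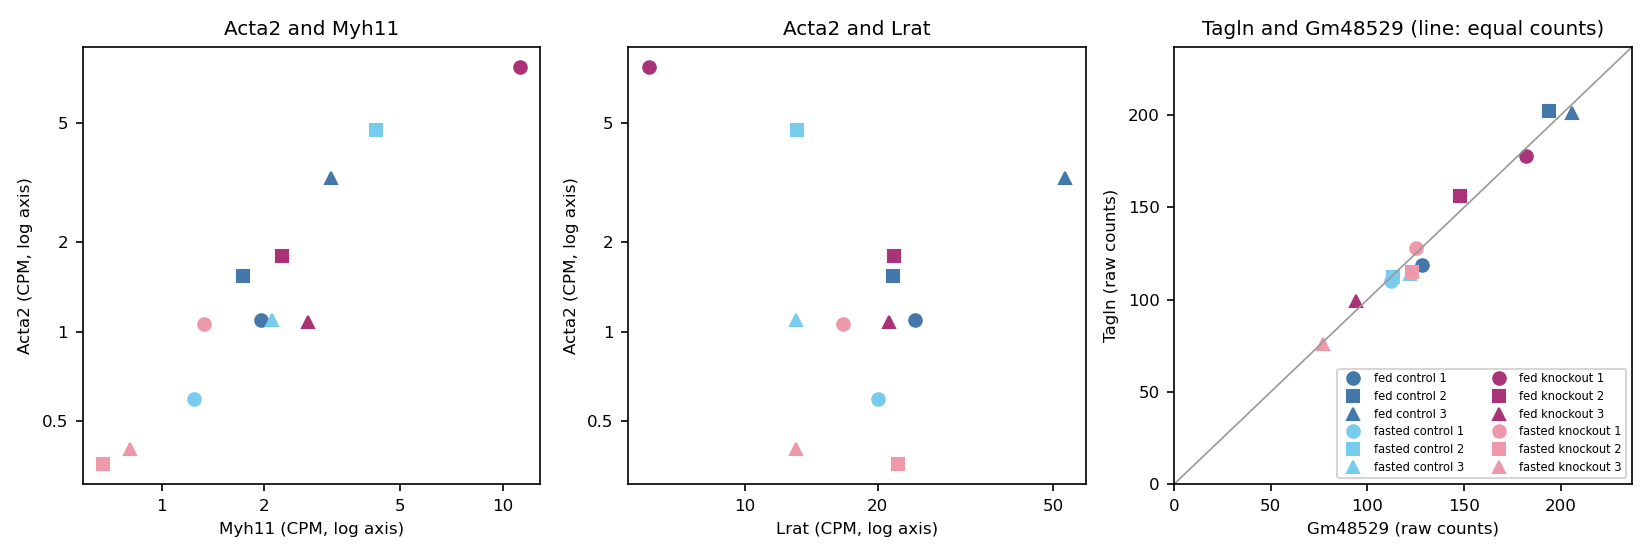
Left and middle, Acta2 against Myh11 and against Lrat in CPM on log axes; right, raw counts of Tagln against those of the overlapping Gm48529, with the line of equal counts; each point is 1 of the 12 libraries. The libraries high for Acta2 are those high for Myh11 (r = 0.945). With Lrat the correlation is -0.238: fed control 3 is high for both, and fed knockout 1 is highest for Acta2 and lowest for Lrat. The Tagln points lie close to the line.

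Fasting in control livers was set against feeding for the 10 genes as a group. With edgeR, 0 of 10 markers passed an adjusted p of 0.05, where 4.14% of the 15862 tested genes did. At an unadjusted p under 0.05 there were 2 markers, Pdgfrb and Tagln, both lower, against 19.4% of all genes, a share close to that background. DESeq2 and limma-voom also called 0 markers. 9 of 10 markers lay below 0 against 50.5% of all genes, and their median difference was -0.549 beside -0.00348 for all genes. In CPM, Lrat, Reln and Des were lower without overlap, 3 of 10 against 10.9% of all genes, but each of them overlapped in TPM. Without fed control 3 the median was -0.282, with 9 markers still below 0.

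In knockout livers fasting gave no common direction. With edgeR, 0 of 10 markers passed the adjusted threshold, against 2.48% of all genes, and DESeq2 called Acta2 alone. At an unadjusted p under 0.05 there were Acta2 and Tagln, against 14.6% of all genes. 3 of 10 markers lay below 0 against 50.8% of all genes, namely Rgs5, Acta2 and Tagln, and the median was 0.0786 beside -0.00588 for all genes. Acta2 was lower without overlap in CPM, 1 of 10 against 11.8% of all genes, but overlapped in TPM and in raw counts. Without fed knockout 1 the median was -0.126 and 7 markers lay below 0.

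Averaged over both genotypes, fasting again left 0 of 10 markers past the threshold with edgeR, although 9.07% of all genes passed in this comparison. Tagln alone had an unadjusted p under 0.05, against 23.6% of all genes, and DESeq2 called it. The median was -0.356, with 8 markers below 0 against 51.6% of all genes, and -0.173 without fed control 3. The 2 exceptions, Hgf at 0.01 and Ecm1 at 0.07, had 95% intervals of -0.62 to 0.65 and -0.30 to 0.44.

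The knockout against control comparison in fed livers called 0 of 10 markers, beside 0% of all genes. Ecm1 alone had an unadjusted p under 0.05, against 6.12% of all genes. 9 of 10 markers lay below 0 against 52% of all genes, with a median of -0.556 beside -0.0101 for all genes. In CPM, Reln and Ecm1 were lower without overlap, 2 of 10 against 5.99%, but Reln overlapped in TPM. The median was -0.294 without fed control 3, -0.392 without fed knockout 1 and -0.108 without both. These are the highest fed control and the lowest fed knockout for each quiescent marker, so leaving them out brings the groups closer by construction. This comparison shares its fed controls with the fasting comparison in controls, so the 2 sets of lower values are not separate observations.

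In fasted livers the genotypes gave 0 of 10 markers past the threshold, beside 0.0315% of all genes, and 0 at an unadjusted p under 0.05, against 9.01%. 4 of 10 lay below 0 against 52.1%, with a median of 0.0902, and 0 were lower without overlap against 7.2%. Averaged over feeding states, 0 passed beside 0.0126%, Ecm1 alone had an unadjusted p under 0.05 against 7.91%, and all 10 lay below 0 against 53.6%, with a median of -0.184. Without fed control 3 and fed knockout 1, 5 of the 10 lay below 0 and the median was -0.0119. The interaction called 0 markers beside 0.0063% of all genes, with 0 at an unadjusted p under 0.05 against 7.19%. The interaction estimates of 2 of 10 markers lay below 0 against 50.7% of all genes, those of Acta2 and Tagln, at -2.61 (SE 1.31, adjusted p = 0.72) and -0.07 (SE 0.34, adjusted p = 0.98). That of Acta2 was -1.31 without fed knockout 1 and -1.31 without fasted control 2, and that of Tagln was 0.08 without fed knockout 1. That of Rgs5 was 0.30, and -0.18 without fed control 3.

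**Figure D3:**
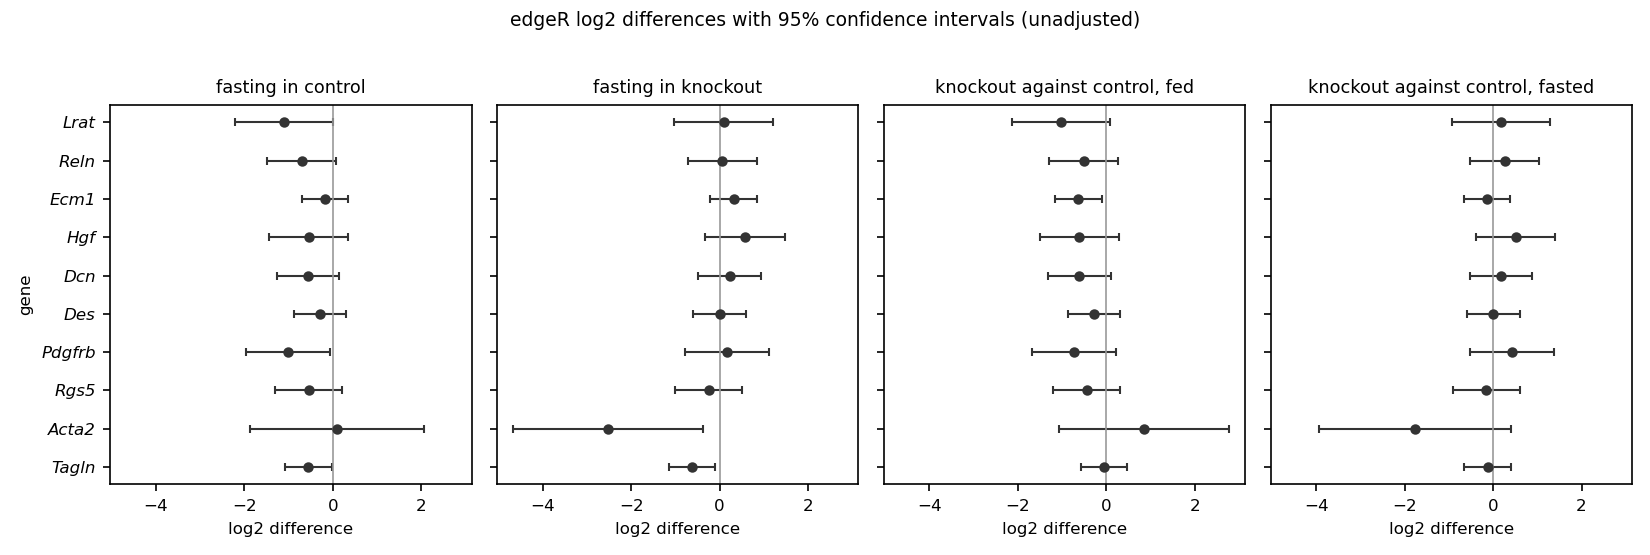
Log2 difference of each marker (points) with its unadjusted 95% confidence interval from edgeR (bars) in 4 comparisons, with a line at 0. In fasted against fed controls 9 points lie left of 0, in knockouts 3 do, and the interval of Acta2 is the widest in each panel, -4.66 to -0.36 for fasting in knockouts.

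Most of the markers varied more between animals of 1 group than other tested genes of similar level. The within-group SD on the log2 scale was 0.686 for Lrat, where the median tested gene of the same CPM range had 0.142, and 98.9% of that range had a smaller SD. For Acta2 it was 1.22 against 0.390, larger than in 98.4% of its range. Reln, Rgs5, Pdgfrb and Hgf exceeded 95.5% to 97.3% of genes in their ranges, Dcn and Ecm1 exceeded 93.1% and 92.9%, and Tagln exceeded 81.4%. Des was the exception at 41.7%, with an SD of 0.357 against 0.390. Without fed control 3 and fed knockout 1 the SD of Lrat was 0.306, while that of Reln stayed at 0.476 and that of Acta2 at 1.05.

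**Figure D4:**
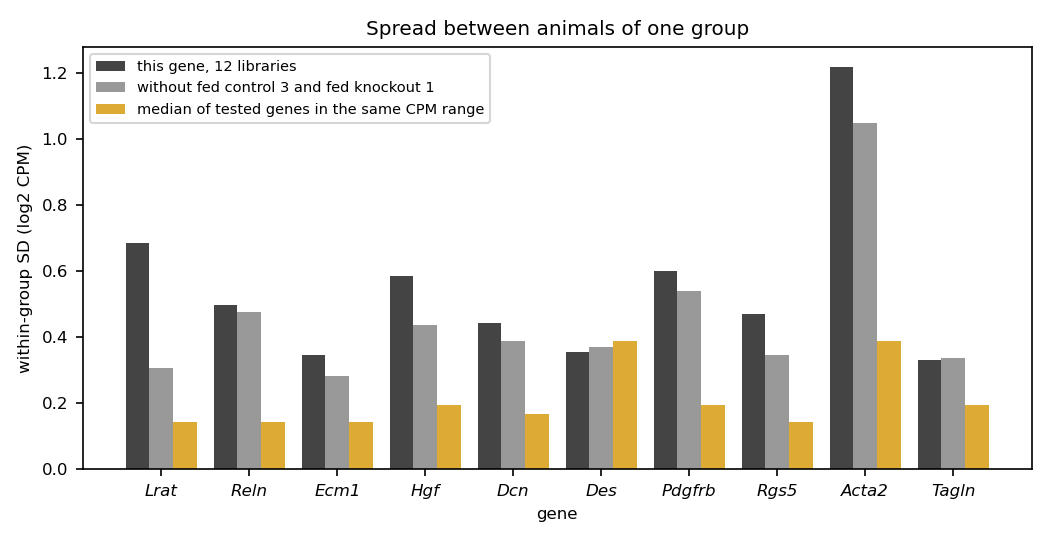
Within-group SD of log2 CPM for each marker over 12 libraries (dark bars), without fed control 3 and fed knockout 1 (grey bars), and the median over tested genes of the same CPM range (yellow bars). Each marker except Des, at 0.357, lies above the median of its range, and Acta2 at 1.22 is the highest.

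In some libraries most markers departed from their medians in the same direction, but Acta2 did not always follow. It was 2.12 above its median in fasted control 2. In fed control 3 all 10 were above their own 12-library median, by 0.757 log2 units at the median marker. In fasted knockout 3 all 10 were below, by 0.651. In fed knockout 1, 7 were below and 3 (Rgs5, Acta2 and Tagln) above, with a median of -0.696 over the 10 and -1.002 over the 6 quiescent markers. Fasted control 2 and fasted control 3 had 8 markers below each, with medians of -0.321 and -0.322. The other libraries had medians between -0.0701 and 0.204.

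**Figure D5:**
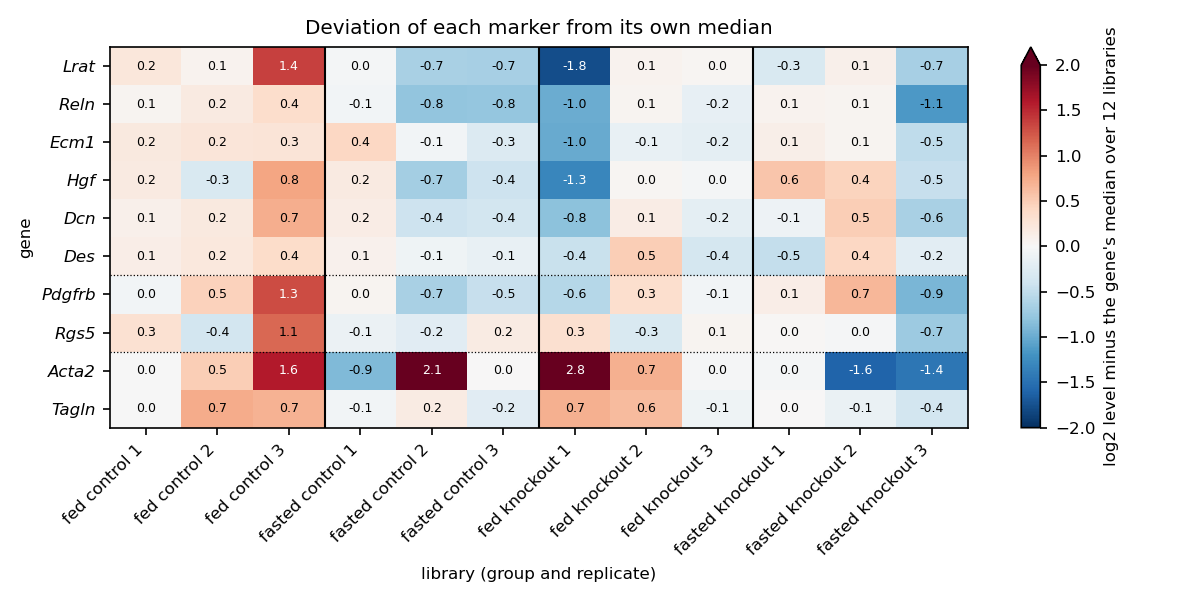
Deviation of each marker (rows) from its own median over the 12 libraries, in log2 units (colour and printed value), by library (columns), with dotted lines between quiescent, mural and contractile markers. The fed control 3 column is above 0 for all 10 markers, the fasted knockout 3 column below 0 for all 10, and fed knockout 1 is low for the quiescent markers but highest of all for Acta2.

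As a description over 12 libraries, the Pearson correlation of log2 CPM between 2 markers had a median of 0.774 over the 28 pairs without Acta2 and Tagln, and of 0.607 over 10 libraries, without fed control 3 and fed knockout 1. Pdgfrb and Dcn were the closest pair at 0.94 (0.948 over 10 libraries), followed by Lrat with Dcn at 0.91 and Reln with Dcn at 0.907. Rgs5 stood apart from the quiescent markers, with a median of 0.373 to the other 9. Acta2 had a median of -0.163 to the other 9, was lowest with Hgf at -0.457, and was highest with Tagln at 0.733. All these values share the libraries, their cell make-up and the scaling factors.

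Beyond the set, the tested genes with the highest correlation to a quiescent marker included other genes of known stellate cell expression. For Reln they were Pth1r (0.966), Bmp5 (0.964) and Rtn1 (0.945), and for Ecm1 Lhx2 (0.932), Trp53i11 (0.92) and Hand2 (0.907), where Lhx2 and Hand2 encode transcription factors of the quiescent cell. For Dcn they were Gucy1a1 (0.975), a subunit of the nitric oxide receptor, Synm (0.961), an intermediate filament protein, and Rab3d (0.958). For Pdgfrb they were Col14a1 (0.965), Pam (0.963) and Ngfr (0.961), for Lrat Entpd2 (0.926), Angptl6 (0.92) and Lratd2 (0.919), and for Hgf Tlr5 (0.921), Ntn1 (0.908) and Nrp2 (0.906). Those of Lrat were lower over 10 libraries, at 0.76, 0.72 and 0.68, whereas those of Reln stayed at 0.964, 0.955 and 0.924. For Des they included Ms4a4d (0.901) and Mark1 (0.88), and for Rgs5 they were Ano1 (0.914), Trim35 (0.904) and Ifi27l2b (0.9).
The contractile markers had other neighbours. Acta2 was closest to Myh11 (0.945, and 0.918 over 10 libraries), the smooth muscle myosin heavy chain, then to Jcad (0.915) and Atp6v0a1 (0.897). Myh11 stood at 11.2 CPM in fed knockout 1, 4.24 in fasted control 2 and 3.13 in fed control 3, the same 3 libraries that were high for Acta2, and at 0.674 to 2.69 CPM in the other 9. Tagln was closest to Ogn (0.946), a proteoglycan, Plet1 (0.932) and Samm50 (0.924).

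Wider lists of genes of the same cell states were written from general knowledge, with earlier results of these data known. The quiescent list holds close correlates of the markers, Pth1r, Bmp5, Lhx2, Hand2 and Gucy1a1 among them. Its genes outside the set are thus not separate observations from the markers. Of 25 quiescent stellate cell genes, 6 of them the markers above, 0 passed the threshold of edgeR with fasting in either genotype alone, and 5 in controls and 2 in knockouts had an unadjusted p under 0.05, shares near or below the 19.4% and 14.6% of all genes. With fasting in controls 21 lay below 0, with a median of -0.542, and in fed knockouts against fed controls 22 did, with a median of -0.538. In the mean over genotypes 2 of the 25 changed with fasting, near the 9.07% of all genes that did. Nes, the intermediate filament nestin, fell (-0.82, SE 0.23, adjusted p = 0.045), and Cxcl12, a chemokine, rose (0.38, SE 0.11, adjusted p = 0.045).

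Of 20 tested genes of activated stellate cells and myofibroblasts, 18 lay below 0 with fasting in controls (median -0.95, against 50.5% of all genes) and 17 in fed knockouts against fed controls (median -0.799, against 52%), and 0 passed with edgeR in any comparison. At an unadjusted p under 0.05 there were 8 with fasting in controls, all lower, where 9.81% of all genes were lower at that p. Fed control 3 was high for these genes too: their summed level was 694 CPM there against 126 to 301 CPM in the other libraries. Col3a1, a fibrillar collagen, stood at 153 CPM in it and at 8.29 to 34.6 CPM elsewhere. The smallest p-values in the mean fasting comparison after Tagln belonged to Sparc (-0.73, adjusted p = 0.10), Tnc (-1.18, adjusted p = 0.11) and Col3a1 (-1.37, adjusted p = 0.16). Of 9 pericyte genes 0 passed in any comparison with edgeR, and at most 1 had an unadjusted p under 0.05 in any 1 comparison, with Notch3 at -0.51 and Mcam at -0.30 in the mean fasting comparison.
Of 11 tested contractile smooth muscle genes, 2 fell with fasting over both genotypes, where 4.52% of all genes fell. Myl9, a myosin light chain, fell by 1.33 (SE 0.35, adjusted p = 0.031), and by 2.16 in knockouts alone (adjusted p = 0.046). Actn1, an alpha-actinin, fell by 0.35 (SE 0.098, adjusted p = 0.040). Myh11 differed by -1.18 (adjusted p = 0.14) and Smtn by -0.53 (adjusted p = 0.13).

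The storage of retinol that Lrat serves is part of a wider set of retinoid genes, many of which hepatocytes also express. Of 16 tested, 1 rose and 4 fell with fasting over both genotypes, where 9.07% of all genes passed in either direction. Pnpla3, a lipase that acts on retinyl esters and triglycerides, stood at 3.14 to 7.63 CPM in the 6 fed livers and at 0 to 0.38 CPM in the 6 fasted ones (-4.94, SE 0.48, adjusted p = 0.00012). It fell in each genotype (-5.21 in controls, adjusted p = 0.0021, and -4.66 in knockouts, adjusted p = 0.0054). Cyp26a1, which breaks down retinoic acid, fell by 1.09 (adjusted p = 0.013), Rarb, a retinoic acid receptor, by 0.88 (adjusted p = 0.030) and Stra6l, a retinol carrier receptor, by 0.30 (adjusted p = 0.019). Rxra, the shared partner of nuclear receptors, rose by 0.37 (adjusted p = 0.034). Over the same comparison Lrat had -0.50 (SE 0.35, adjusted p = 0.43). No retinoid gene passed in a comparison of genotypes.

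For the growth factor pathways, 0 of 7 genes of the platelet-derived growth factor family passed with edgeR in any comparison (at most 2 at an unadjusted p under 0.05 in any 1 of them), with all 7 below 0 over both genotypes with fasting, Pdgfb at -0.36 (adjusted p = 0.27) and Pdgfd at -0.41 (adjusted p = 0.27) among them. Of 10 genes of the Hgf and Met pathway 0 passed, and at most 2 had an unadjusted p under 0.05 in any 1 comparison. Met differed by 0.27 between genotypes over both feeding states (SE 0.090, adjusted p = 0.56), and Plau, a protease that can activate the growth factor, by -0.89 with fasting (adjusted p = 0.11). Of 19 genes of TGF-beta signalling and the cofactors of serum response factor, 1 passed, Tgfbr2, the type 2 receptor. It fell by 0.81 with fasting over both genotypes (SE 0.17, adjusted p = 0.013) and by 0.97 in controls (adjusted p = 0.048). Of all genes, 9.07% passed with fasting over both genotypes and 4.14% in controls. Of 7 tested small leucine-rich proteoglycans, the family of Dcn, 0 passed and at most 1 had an unadjusted p under 0.05 in any 1 comparison, with Ogn at -0.63 (adjusted p = 0.095) and Lum at -0.53 (adjusted p = 0.34). Kera and Epyc of this family had 0 counts in all libraries.

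Markers of other cell types moved with the libraries that stood apart. In fed control 3 all 12 infiltrating macrophage genes, all 10 T and NK cell genes and all 10 cell cycle genes were above their median, as were 16 of the 19 quiescent stellate cell genes outside the set. Summed levels there were 353 CPM for infiltrating macrophage genes against 115 to 226 CPM elsewhere, 17.3 CPM for T and NK cell genes against 3.06 to 11.1 CPM, and 92.0 CPM for cell cycle genes against 38.6 to 76.5 CPM. The summed level of 10 hepatocyte genes was lowest in the same library, at 67400 CPM against 68900 to 119000 CPM elsewhere. In fed knockout 1, 11 of 12 portal fibroblast genes and 10 of 13 smooth muscle genes were above their median, while 2 of 19 quiescent stellate cell genes outside the set were. Also above were 8 of 8 immediate early, 9 of 10 T and NK cell and 9 of 12 infiltrating macrophage genes. The cell cycle and hepatocyte lists each had 8 of 10 above, the endothelial list 4 of 12 and the Kupffer cell list 0 of 10. Of the endothelial genes, 12 of 12 lay below 0 with fasting in controls, with a median of -0.299. In the same comparison 10 of 12 infiltrating macrophage genes (median -0.952), 5 of 6 mesothelial genes (median -1.08) and 7 of 10 portal fibroblast genes (median -0.451) lay below 0. Of all genes, 50.5% did. Other lists lay mostly above 0: 8 of 10 Kupffer cell genes (median 0.108) and 5 of 7 tested T and NK cell genes (median 0.122). So did 3 of 4 tested cholangiocyte genes (median 0.334) and 7 of 10 hepatocyte genes (median 0.294). The summed level of the endothelial genes was 380 to 578 CPM in fed controls and 297 to 434 CPM in fasted controls. Of the 6 skeletal muscle genes, Myh4 had 0 counts in all libraries, and the summed level was at most 0.842 CPM. Immediate early genes, which respond to tissue handling among other stimuli, had a summed level of 111 to 187 CPM in the 6 fed livers and 79.4 to 129 CPM in the 6 fasted ones. Of these 8 genes 3 fell with fasting over both genotypes, where 4.52% of all genes fell: Dusp1 (-1.30, adjusted p = 0.0024), Ier2 (-0.50, adjusted p = 0.033) and Fos (-1.21, adjusted p = 0.045). In the same comparison Cd9 of the infiltrating macrophage list fell (-0.47, adjusted p = 0.032), as did Sox9 of the cholangiocyte list (-0.68, adjusted p = 0.043), and Cyp2e1 of the hepatocyte list rose (0.64, adjusted p = 0.039). Tat, another hepatocyte gene, rose with fasting in controls (0.88, adjusted p = 0.021). No gene of the portal fibroblast, mesothelial, endothelial, Kupffer cell, T and NK cell, skeletal muscle or cell cycle lists passed in any comparison. The part of these other cells, and of tissue handling, in the differences of the 10 markers was not tested.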

How the data were processed

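Per the labels' protocols, RNA from frozen liver went into strand-specific poly(A) libraries. The submitters' processing notes name bcl2fastq 2.19, Trimmomatic 0.38, HISAT2 2.1.0, featureCounts 1.6.3, DESeq2 1.24.0 and build mm10, with no role or order. For the annotation release and the strand setting of counting, the sources used here name none. As deposited by the authors, the files hold raw counts and TPM for 55487 genes in 12 libraries of 17520058 to 22414976 counts.

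Of these genes, filterByExpr kept 15862. They were tested on counts with TMM factors and the robust quasi-likelihood F test of edgeR 4.0.16 (R 4.3.3), 2-sided, in 1 fit of 4 group means with 7 contrasts. Adjusted p is by Benjamini-Hochberg, taken across the 15862 genes, with a threshold of 0.05. Levels compared between genes are TPM as deposited by the authors, and others are TMM-scaled CPM. The test was tried on simulated counts. Alternatives used limma 3.58.1 and DESeq2 1.42.0.

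The members and the 20 gene lists were chosen with earlier results of these data known. Named genes are the members, up to 4 of each list with the smallest p over both genotypes or feeding states, listed genes past the threshold, and the 3 closest correlates of each member; some that the rule names are not reported here. Foxo3 and genes of overlapping loci are named beside them, and single levels of listed genes were added after their values were seen. The labels give no batch. Between replicates, chi-square per gene was 19.6 to 90.5, so no 2 libraries of 1 group were duplicates.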

Additional observations from a re-analysis of the deposited data

How the results depend on the processing

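In the mean fasting comparison the count of markers past the threshold moved from 0 to 1, Tagln, with no filter on low counts (-0.579, adjusted p = 0.026), with a filter of 1 CPM in 3 libraries (-0.587, adjusted p = 0.049) and with DESeq2 (-0.585, adjusted p = 0.019). It also moved to 1 with the counts of Gm48529 added (-0.563, adjusted p = 0.044), an alternative chosen after seeing the data that may count the same reads more than once. Leaving out each library in turn gave 0 to 1, with 1 without fed control 1 (-0.684) and without fed knockout 3 (-0.687). These are the lowest fed livers of each genotype for Tagln, so leaving them out widens its difference by construction. With fasting in knockouts the count moved from 0 to 1 under DESeq2, which called Acta2 (-2.53, adjusted p = 0.037). The cause was not tested. RLE or upper-quartile factors, limma-voom, limma on log2(TPM + 1) or log2(TPM + 0.1) after a filter of 0.5 TPM in 3 libraries, and a fit of only the compared groups called 0 markers in each comparison where they were run. Fits without fed control 3 and fed knockout 1 together, chosen after seeing the data, also called 0. Of 1573 values of single markers under an alternative, 77 lay on the other side of 0 from the reported value, none of them past the threshold on either side, and the largest of the reported values that changed side was 0.845 for Acta2 in fed knockouts against fed controls. The fit with the replicate number as a block called 0 markers in every comparison, and 439 and 232 genes in fasted against fed controls and knockouts, beside 657 and 393 without it. Same-numbered libraries correlated at -0.284 to 0.184 in their deviations from group means, which gave no sign of a pairing by number. With 3 libraries per group this check cannot exclude shared handling. Deviations from group means also cannot show a batch that coincides with a group. Groups of 3 livers and low counts of Acta2 (7 to 148) limit what could be detected.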
